A study of Mus musculus with 21 samples.

Results

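The 40 genes described here encode the proteins that copy DNA in mouse cells, from origin recognition to the joining of Okazaki fragments. They were chosen by symbol for their known function, with earlier results of these data known, and all 40 were found in each of the 3 expression tables, which list 53796 genes apiece. They fall into 7 roles: 6 subunits of the origin recognition complex, 3 licensing factors counting their inhibitor, 6 subunits of the MCM helicase, 7 helicase activation and firing factors, 6 clamp and clamp loader subunits, 8 polymerase and primase subunits, and 4 genes for single-strand binding and fragment joining. All 40 passed the filter on low values in both knockout comparisons.

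Before S phase, the origin recognition complex, Cdc6 and Cdt1 load the ring of MCM subunits on DNA, and geminin (Gmnn) binds Cdt1 and stops a second loading. The kinase Cdc7 with its partner, then Cdc45, Mcm10 and the GINS subunits, turn the loaded ring into a moving helicase, behind which primase, the polymerases, the sliding clamp Pcna and its loader RFC make the new strands. Embryonic stem (ES) cells divide fast with a short G1 phase and are known for abundant replication proteins, and E2F transcription factors are textbook regulators of many of these genes. Dot1l is the methyltransferase for lysine 79 of histone H3, a mark laid over transcribed genes.

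The RNA came from mouse ES cells of strain V6.5. Control cells carried a control guide RNA and were labelled WT, and knockout (KO) cells were labelled Dot1l KO, with no word on clones or pools. Both were sequenced with 3 libraries in medium with serum and leukemia inhibitory factor (LIF), on growth-arrested fibroblast feeders, and with 3 libraries after 24 h on gelatin with Wnt3a at 50 ng/ml and activin A at 10 ng/ml, factors used to drive ES cells toward primitive streak fates. A further 3 ES cell libraries, kept in LIF, carry the genotype Cdk1as/as in the sample labels, an analog-sensitive Cdk1 allele, whereas the series design calls the cells of its plain transcriptome WT. The values are the authors' FPKM, which scale the fragments of a gene by transcript length and library size, so the genes can be compared with each other per length. Separate cultures are not named for the libraries of a group, so each p-value measures library-to-library spread that may be purely technical.

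Dot1l itself was lower but still present in the KO libraries. In LIF it was 21.2, 20.6 and 24.6 FPKM in control and 11.2, 8.9 and 10.8 FPKM in KO libraries, and under Wnt3a and activin A 18.5, 17.7 and 19.1 against 13.5, 12.9 and 14.7 FPKM, with no overlap in either medium. The transcript outside an edited site may persist, so its level does not measure the loss of the protein. The ES cell label fitted its markers in LIF, where Pou5f1 averaged 1670 FPKM in control libraries, and 6 of 7 primitive streak markers were higher in KO than in control libraries under Wnt3a and activin A. Summed, these 7 were 4.63 to 5.06 FPKM in control libraries in LIF and 938 to 1040 FPKM under Wnt3a and activin A, from tables whose scaling to each other is not stated. FPKM summed over all genes ran from 835737.1 to 1079784.1 in LIF, the highest in KO replicate 3, where the short RNA Mir6236 alone was listed at 309000 FPKM, and from 1087971.1 to 1144373.3 in control against 759254.7 to 792381.2 in KO libraries under Wnt3a and activin A. Read depth is not stated. Under Wnt3a and activin A, 18632 to 19403 genes were above 0 in control and 20346 to 21040 in KO libraries. A rough estimate from the lowest values put the control libraries at 0.518 to 0.683 of the depth of KO replicate 1. It put KO replicates 2 and 3 at 0.841 and 0.901, and the part of depth in the calls was not tested.

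Promoters of these genes were searched for 4 E2F words (TTTCCCGC, TTTCGCGC, TTTGCCGC and TTTGGCGC, both strands, overlaps allowed) in RefSeq's GRCm38.p6 windows of 250 bases before to 50 bases after the gene start. Of the 40 genes, 32 had a window, and 14 of these (43.8%) held at least 1 word, against 2.6% of 27025 genes with a window. The CCAAT box, the letters CCAAT on either strand, was in 20 of the 32 (62.5%), against 41.1% of all genes. Below, 4 windows are printed from 250 bases before to 20 bases after the start, with each E2F word in capitals: Rfc3 (minus strand, chr5:151651189-151651458) and Pole2 (minus strand, chr12:69228171-69228440) because they had 2 of the largest falls under Wnt3a and activin A, Mcm6 (minus strand, chr1:128359686-128359955) because it held 3 words and had no call, and Mcm2 (minus strand, chr6:88898761-88899030) because it rose and held none.
Rfc3: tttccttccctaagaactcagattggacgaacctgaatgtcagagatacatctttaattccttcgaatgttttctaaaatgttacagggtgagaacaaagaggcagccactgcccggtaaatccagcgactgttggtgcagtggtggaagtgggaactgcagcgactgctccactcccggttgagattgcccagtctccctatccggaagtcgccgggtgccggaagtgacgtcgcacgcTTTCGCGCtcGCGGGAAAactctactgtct
Pole2: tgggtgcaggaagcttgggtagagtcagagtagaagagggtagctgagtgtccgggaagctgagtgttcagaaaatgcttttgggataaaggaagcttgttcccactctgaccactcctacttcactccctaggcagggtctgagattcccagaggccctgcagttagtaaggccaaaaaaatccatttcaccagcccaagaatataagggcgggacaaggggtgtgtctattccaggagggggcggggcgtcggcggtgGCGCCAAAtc
Mcm6: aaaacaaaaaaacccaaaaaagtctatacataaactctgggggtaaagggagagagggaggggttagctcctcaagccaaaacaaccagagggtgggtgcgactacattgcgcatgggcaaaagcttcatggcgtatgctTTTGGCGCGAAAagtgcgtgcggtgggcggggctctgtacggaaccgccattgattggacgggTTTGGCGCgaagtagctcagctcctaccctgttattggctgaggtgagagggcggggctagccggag
Mcm2: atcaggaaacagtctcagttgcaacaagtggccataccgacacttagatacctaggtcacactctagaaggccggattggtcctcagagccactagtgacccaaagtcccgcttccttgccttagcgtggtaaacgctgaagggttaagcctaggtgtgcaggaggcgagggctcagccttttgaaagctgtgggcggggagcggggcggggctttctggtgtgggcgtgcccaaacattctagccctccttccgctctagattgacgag
The 2 words of Rfc3 lie at its start site, the word of Pole2 lies just after it, and 2 of the 3 words of Mcm6 overlap upstream of it. A match is a string of letters and not a measured binding site.

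In control cells in LIF the replication genes spanned from 4.75 FPKM for Gins3, a GINS subunit, to 398 FPKM for Mcm2. By mean level over the 6 LIF libraries, control and KO, 26 of the 40 stood in the top 2 deciles of the 13153 genes tested. Mcm2 was 377, 403 and 413 FPKM, above Mcm3 at 306, 299 and 307 FPKM, and Mcm3 was above the next genes, Pold2 at 227, 278 and 263 FPKM and Mcm5 at 233, 225 and 245 FPKM. The ranges of Pold2 and Mcm5 overlapped, while Mcm7 at 195, 194 and 210 FPKM and then Pcna at 180, 175 and 178 FPKM followed without overlap. The 6 MCM subunits, which form a ring with 1 copy of each, differed 3.51-fold in mean FPKM, from Mcm2 down to Mcm4 at 113 FPKM. The origin recognition subunits were lower and differed 3.68-fold, from Orc6 at 82.0 FPKM to Orc5 at 22.3 FPKM.

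Subunits of the polymerases and of GINS also stood at unequal levels. Pold2, the second subunit of DNA polymerase delta, averaged 256 FPKM and its catalytic subunit Pold1 76.5 FPKM, whereas the catalytic subunit of polymerase alpha, Pola1, averaged 12.3 FPKM and its partner Pola2 54.0 FPKM. Polymerase epsilon was lower than delta, with Pole at 32.3 FPKM and Pole2 at 17.7 FPKM. Gins2 averaged 135 FPKM, 28.5-fold above Gins3, and the kinase gene Cdc7 was at 10.7 to 11.3 FPKM. Among the loader subunits, Rfc2 (164 FPKM) and Rfc5 (157 FPKM) had overlapping libraries, and Rfc3 was lowest at 45.0 FPKM.

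The cells under Wnt3a and activin A and the Cdk1as/as ES cells are in tables of their own. No source used here says how the tables were scaled to each other, so only orders within a group are given here for the replication genes. In control cells under Wnt3a and activin A, Mcm3 led the MCM subunits at 288 FPKM, with Mcm2 at 111 FPKM, and the loader subunit Rfc3 stood at 116 FPKM, above Rfc1 at 40.6 FPKM. Lig1, the ligase that seals Okazaki fragments, was the second highest gene of the set there at 214 FPKM. In the Cdk1as/as ES cells Mcm2 again led, at 197, 253 and 190 FPKM. Cdt1 and Gins2 were listed at 0 in all 3 of those libraries, as were all 210 genes that share their table locus of 4.44 Mb, so no level is given for them there.

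**Figure D1:**
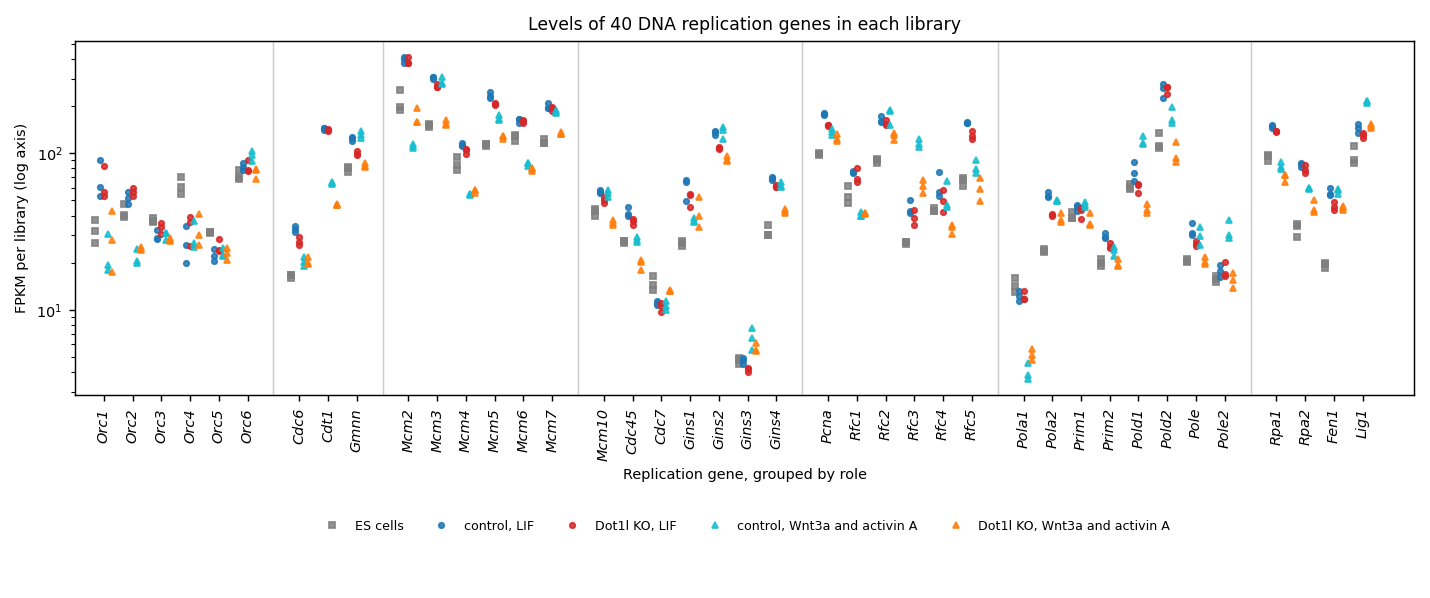
FPKM of the 40 replication genes in each of 15 libraries on a log axis, grouped by role from the origin recognition complex on the left to single-strand binding and fragment joining on the right; each point is 1 library and the values at 0 (Cdt1 and Gins2 in ES cells) are not drawn. In control cells in LIF, Mcm2 is highest at 398 FPKM and Gins3 lowest at 4.75 FPKM, and the MCM genes run from 113 FPKM for Mcm4 upward.

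Control libraries were then compared with KO libraries in LIF, with limma's moderated test on log2(FPKM + 1) over all 13153 genes and Benjamini-Hochberg adjustment, called at adjusted p under 0.05. Of the 40 replication genes, 4 fell in KO cells (Gmnn, Gins2, Pcna and Pola2) and 0 rose, beside 4.41% of all tested genes called, 3.45% lower and 0.958% higher. The median log2 fold change of the 40 was -0.14, beside -0.07 over all genes, and 34 of 40 were below 0. At an unadjusted p under 0.05, 17 of the 40 were lower and 0 higher, beside 24.5% of all genes in either direction. The split of that share by direction is not given here, and 8143 of the 13153 genes had a log2 fold change below 0. In bulk RNA, fewer cells of a type and less RNA per cell cannot be told apart.

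Pola2, the second subunit of polymerase alpha, was 53.4, 52.4 and 56.3 FPKM in control and 39.8, 40.2 and 41.2 FPKM in KO libraries. Every KO library was below every control library, and the log2 fold change was -0.41 ± 0.051 (SE, n = 3 against 3; limma adjusted p = 0.0224). Gmnn, the licensing inhibitor, was 126, 127 and 120 FPKM in control and 98.8, 103 and 97.6 FPKM in KO libraries. Its groups did not overlap either, with a log2 fold change of -0.31 ± 0.047 (limma adjusted p = 0.0295).

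Gins2 was 138, 131 and 136 FPKM in control and 108, 110 and 107 FPKM in KO libraries, a log2 fold change of -0.31 ± 0.043 (limma adjusted p = 0.0251). Gins2 and Cdt1 share a table locus of 4.44 Mb with 210 genes listed, 97 of them at 0 in every LIF library. How reads were divided among those genes is not stated, and the authors' deposited q-value of Gins2 in LIF was 0.93. Pcna, the sliding clamp, was 180, 175 and 178 FPKM in control and 151, 150 and 151 FPKM in KO libraries, a log2 fold change of -0.24 ± 0.037 (limma adjusted p = 0.0304). Gins2 and Pcna were lower in every KO library. All 4 calls were lost when any 1 of the 6 libraries was left out, where 0 of the 40 genes and 1 to 27 of all genes were called, and only that of Pola2 was kept after median-of-ratios rescaling, quantile normalization or removal of the trend of fold change with gene span and level. The authors' deposited table marks 2 of the 40 as lower in LIF, Gmnn and Pola2, and 0 as higher, beside 3.54% and 3.2% of its tested genes.

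The other 36 genes did not pass in LIF. The KO libraries were all below the control libraries for 19 of the 40, beside 22.5% of all genes, and all above for 0, beside 8.66%. Among the MCM genes the log2 fold changes lay between -0.18 (Mcm3 and Mcm5) and -0.02 (Mcm6), and none passed. Values above 0 came mostly from the origin recognition complex, where Orc2, Orc3, Orc4 and Orc5 had 0.13, 0.15, 0.34 and 0.18 and all 6 subunits overlapped between the groups. Orc1 and Orc4 spread widely, with Orc1 at 53.1, 90.5 and 60.5 FPKM in control and 82.6, 53.5 and 56.8 FPKM in KO libraries. Feeder and fibroblast markers were also measured in LIF: of 12 listed, 6 were tested and 2 were called higher (Acta2 and Timp3). All 6 had log2 fold changes above 0, from 0.45 to 1.04. For 5 of them every KO library was above every control library, beside 8.66% of all genes. The authors' deposited table marks 4 of the 12 as higher. Summed, the 12 were 39.5 to 60.4 FPKM in control and 75.1 to 82.5 FPKM in KO libraries. Of 7 ES cell markers 6 fell, with sums of 5380 to 5460 against 4550 to 4790 FPKM. Mitochondrially encoded transcripts, 7 of 13 tested, rose for 5 of the 7, with sums of 2550 to 2950 FPKM in control and 3870 to 4620 FPKM in KO libraries. The part of these in the replication genes' values was not tested.

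More of the set was called under Wnt3a and activin A. Of the 40 genes, 25 fell and 2 rose (Mcm2 and Cdc7) in KO cells, beside 49.1% of 12770 tested genes called, 29.5% lower and 19.6% higher, and the median log2 fold change was -0.36, beside -0.08 over all genes. Mitochondrially encoded transcripts rose for 3 of 7 tested, with sums of 5040 to 5250 FPKM in control and 6130 to 7140 FPKM in KO libraries, and their part in these counts was not tested. KO libraries were all lower for 26 of the 40 genes and all higher for 4, beside 34.8% and 25.3% of all genes. By role, 1 of 6 origin recognition subunits fell, 2 of 3 licensing genes, 3 of 6 MCM subunits, 4 of 7 activation factors, 4 of 6 clamp and loader genes, 7 of 8 polymerase and primase subunits and 4 of 4 of the single-strand binding and joining genes. These counts depend on the scaling between libraries: 11 fell and 7 rose after quantile normalization, beside 22.6% and 21.5% of all genes. With the span and level trend removed 11 fell and 4 rose, beside 17.7% and 19.6%, and after median-of-ratios rescaling 21 fell and 5 rose, beside 24.7% and 24.0%. The authors' deposited table marks 22 as lower and 2 as higher (Mcm2 and Pola1), beside 25.3% and 19.8% of its tested genes.

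**Figure D2:**
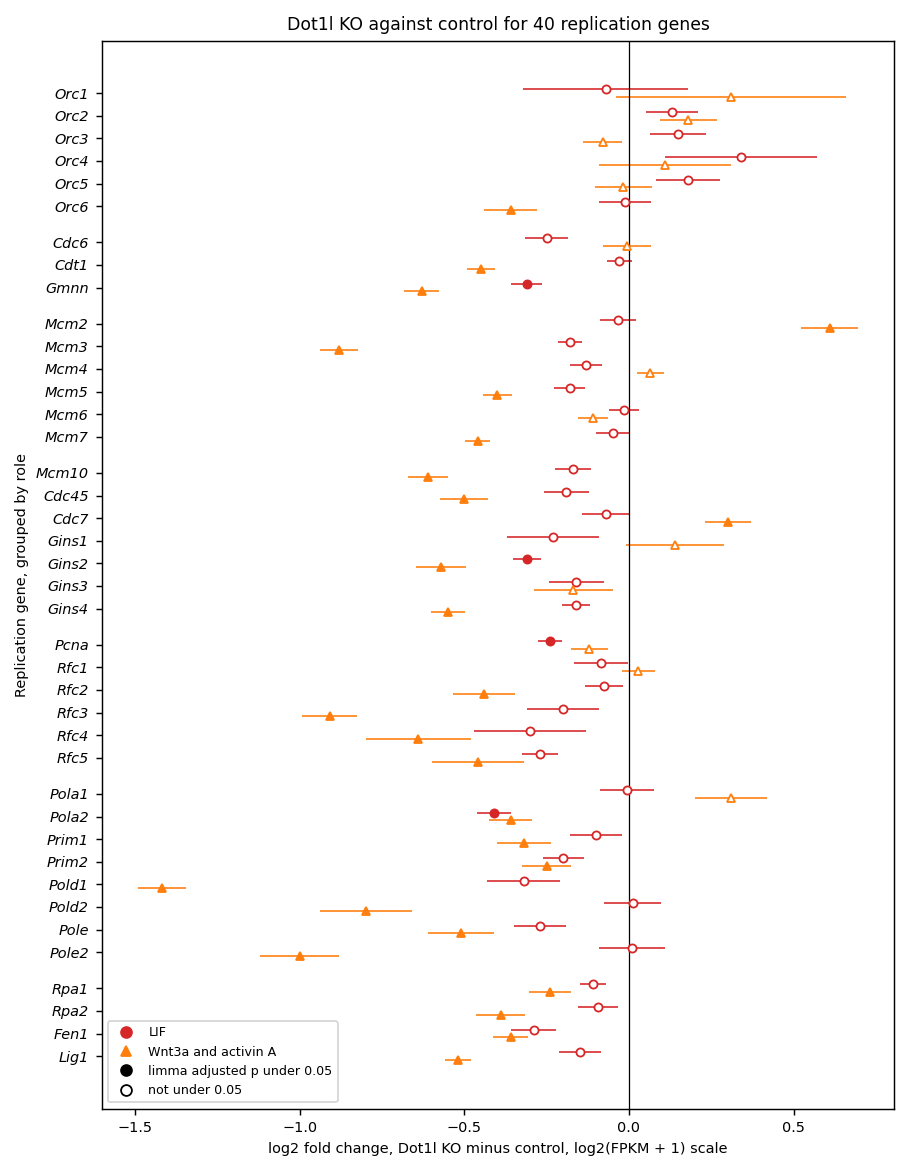
Log2 fold change of KO against control with its standard error for the 40 replication genes, by role from top to bottom, in LIF (circles) and under Wnt3a and activin A (triangles), n = 3 libraries a group; filled symbols passed the limma threshold. Most triangles lie left of 0, down to -1.42 for Pold1, with Mcm2 at 0.61 and Cdc7 at 0.30 on the right; after quantile normalization or removal of the level trend 6 of the 25 lower genes changed sign.

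Licensing genes were split. Gmnn was 138, 130 and 125 FPKM in control and 87.0, 83.0 and 82.0 FPKM in KO libraries. All KO libraries were far below the control libraries, with a log2 fold change of -0.63 ± 0.053 (limma adjusted p = 0.000296). Its partner Cdt1 was 64.2, 65.8 and 63.6 FPKM in control and 47.0, 47.6 and 46.5 FPKM in KO libraries, a log2 fold change of -0.45 ± 0.043 (limma adjusted p = 0.000449) that changed sign when the span and level trend was removed. The locus that Cdt1 shares with Gins2 held 96 of 210 genes at 0 in every library here. The authors' deposited q-values under Wnt3a and activin A were 0.529 for Cdt1 and 0.649 for Gins2. Cdc6, the loading ATPase, had a log2 fold change of -0.01 ± 0.074 and overlapping groups. Of the origin recognition subunits Orc6 fell, from 97.5, 103 and 88.7 FPKM to 77.9, 78.9 and 68.5 FPKM, a log2 fold change of -0.36 ± 0.081 (limma adjusted p = 0.0128) that became 0.08 with the span and level trend removed. The other 5 subunits did not pass, with log2 fold changes from -0.08 (Orc3) to 0.31 (Orc1).

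In the MCM ring, subunits of 1 complex were called in opposite directions. Mcm2 was 114, 108 and 112 FPKM in control and 159, 159 and 195 FPKM in KO libraries. Every KO library was above every control library, with KO replicate 3 highest, and the log2 fold change was 0.61 ± 0.087 (limma adjusted p = 0.002). Mcm3 was 281, 277 and 308 FPKM in control and 152, 164 and 153 FPKM in KO libraries. Here every KO library was far below every control library, a log2 fold change of -0.88 ± 0.058 (limma adjusted p = 0.000139). Both calls held under all 14 alternatives.

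The other MCM subunits lay between these. Mcm7 was 188, 183 and 181 FPKM in control and 132, 136 and 132 FPKM in KO libraries (log2 fold change -0.46 ± 0.038), and Mcm5 was 175, 165 and 164 against 124, 129 and 129 FPKM (-0.40 ± 0.044). Both fell without overlap, yet Mcm5 changed sign after quantile normalization and Mcm7 with the span and level trend removed. Mcm6 (-0.11 ± 0.045) and Mcm4 (0.07 ± 0.042) did not pass, although the authors' scaling is not the only one possible: both were called higher after quantile normalization. Mcm7 holds the microRNAs Mir106b, Mir25 and Mir93 within its gene and overlaps Ap4m1, and how reads of overlapping genes were counted is not stated.

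Among the factors that activate the helicase, Mcm10 was 56.1, 58.3 and 52.2 FPKM in control and 35.9, 34.8 and 37.3 FPKM in KO libraries. The KO libraries were all lower, a log2 fold change of -0.61 ± 0.061 (limma adjusted p = 0.000525). Cdc45, the helicase partner, was 29.0, 27.1 and 28.1 against 17.9, 20.7 and 20.1 FPKM, a log2 fold change of -0.50 ± 0.073 (limma adjusted p = 0.00225). Gins2 and Gins4 fell with -0.57 ± 0.076 and -0.55 ± 0.053, whereas Gins1 (0.14 ± 0.15) and Gins3 (-0.17 ± 0.12) did not pass, and these 4 proteins form 1 complex. The call of Gins2 was lost after quantile normalization and with the span and level trend removed. Cdc7, the firing kinase, was 9.94, 10.5 and 11.3 FPKM in control and 13.3, 13.1 and 13.2 FPKM in KO libraries. All 3 KO libraries were higher and close together, a log2 fold change of 0.30 ± 0.07 (limma adjusted p = 0.0143) that held under all 14 alternatives.

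Clamp and loader genes differed from each other as well. Rfc3 was 110, 124 and 115 FPKM in control and 55.9, 61.6 and 67.1 FPKM in KO libraries. All KO libraries were far below the control libraries, and the log2 fold change was -0.91 ± 0.083 (limma adjusted p = 0.000385). Rfc4 was 46.8, 66.7 and 45.1 FPKM in control and 33.6, 30.4 and 34.9 FPKM in KO libraries, with the control libraries widely spread, and its log2 fold change was -0.64 ± 0.16 (limma adjusted p = 0.0161). Rfc4 overlaps Eif4a2, an abundant translation factor gene, so reads near their border are uncertain, and the call of Rfc4 was lost without KO replicate 1 (-0.66) or KO replicate 2 (-0.59). It was lost as well after quantile normalization and with the span and level trend removed. Rfc2 and Rfc5 fell with -0.44 ± 0.095 and -0.46 ± 0.14, while the large subunit Rfc1 had 0.03 ± 0.05. The calls of Rfc2 and Rfc5 were lost after quantile normalization and with the span and level trend removed, and that of Rfc5 also after median-of-ratios rescaling. Pcna, called lower in LIF, did not pass here (142, 136 and 130 against 132, 123 and 120 FPKM, log2 fold change -0.12 ± 0.056), and it was called higher after quantile normalization and with the span and level trend removed.

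The polymerases held the largest falls. Pold1, the catalytic subunit of polymerase delta, was 116, 129 and 115 FPKM in control and 41.5, 43.3 and 47.4 FPKM in KO libraries. The lowest control library was more than double the highest KO library, and the log2 fold change was -1.42 ± 0.073 (limma adjusted p = 7.77e-05). Pold2 was 198, 157 and 164 against 87.4, 92.8 and 118 FPKM, a log2 fold change of -0.80 ± 0.14 (limma adjusted p = 0.00445). It fell without overlap but spread more than Pold1 did, and its call was lost with the span and level trend removed.

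Polymerase epsilon fell too. Pole2, its second subunit, was 37.3, 28.6 and 30.0 FPKM in control and 15.5, 13.8 and 17.1 FPKM in KO libraries, a log2 fold change of -1.0 ± 0.12 (limma adjusted p = 0.00121). Pole, the catalytic subunit, was 29.6, 34.0 and 26.1 against 20.3, 19.7 and 21.6 FPKM, a log2 fold change of -0.51 ± 0.1 (limma adjusted p = 0.00765). Neither gene's groups overlapped, and both calls, with that of Pold1, held under all 14 alternatives. Pole2 overlaps Klhdc1 and Pold2 overlaps Aebp1, so part of their reads could be split differently.

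In polymerase alpha and primase the falls were smaller. Pola2 was 50.3, 49.2 and 49.8 FPKM in control and 36.3, 37.5 and 41.7 FPKM in KO libraries, a log2 fold change of -0.36 ± 0.064 (limma adjusted p = 0.0047). Its call was lost after quantile normalization and with the span and level trend removed. The primase subunits Prim1 and Prim2 fell with -0.32 ± 0.082 and -0.25 ± 0.075. Both primase calls were lost after quantile normalization and after median-of-ratios rescaling, and that of Prim1 also with the span and level trend removed. Pola1 was 3.6, 3.81 and 4.54 FPKM in control and 5.17, 5.62 and 4.76 FPKM in KO libraries. Its KO libraries were all higher, with a log2 fold change of 0.31 ± 0.11 that did not pass (limma adjusted p = 0.06), although it was called higher after median-of-ratios rescaling and without a variance trend, and the authors' deposited table marks it as higher.

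At the lagging strand, Lig1 was 216, 210 and 216 FPKM in control and 149, 144 and 153 FPKM in KO libraries. The libraries of each group were close together and far apart between groups, a log2 fold change of -0.52 ± 0.04 (limma adjusted p = 0.00023) that was lost after quantile normalization. The flap nuclease gene Fen1 fell with -0.36 ± 0.054, and the single-strand binding genes Rpa1 and Rpa2 with -0.24 ± 0.065 and -0.39 ± 0.074. Fen1 changed sign with the span and level trend removed and Rpa1 after quantile normalization. The calls of Fen1, Rpa1 and Rpa2 were lost in both of these settings, and that of Rpa1 also after median-of-ratios rescaling. Across all settings run, the falls of Gmnn, Mcm3, Mcm10, Cdc45, Rfc3, Pold1, Pole and Pole2 were called each time, 8 of the 25.

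**Figure D3:**
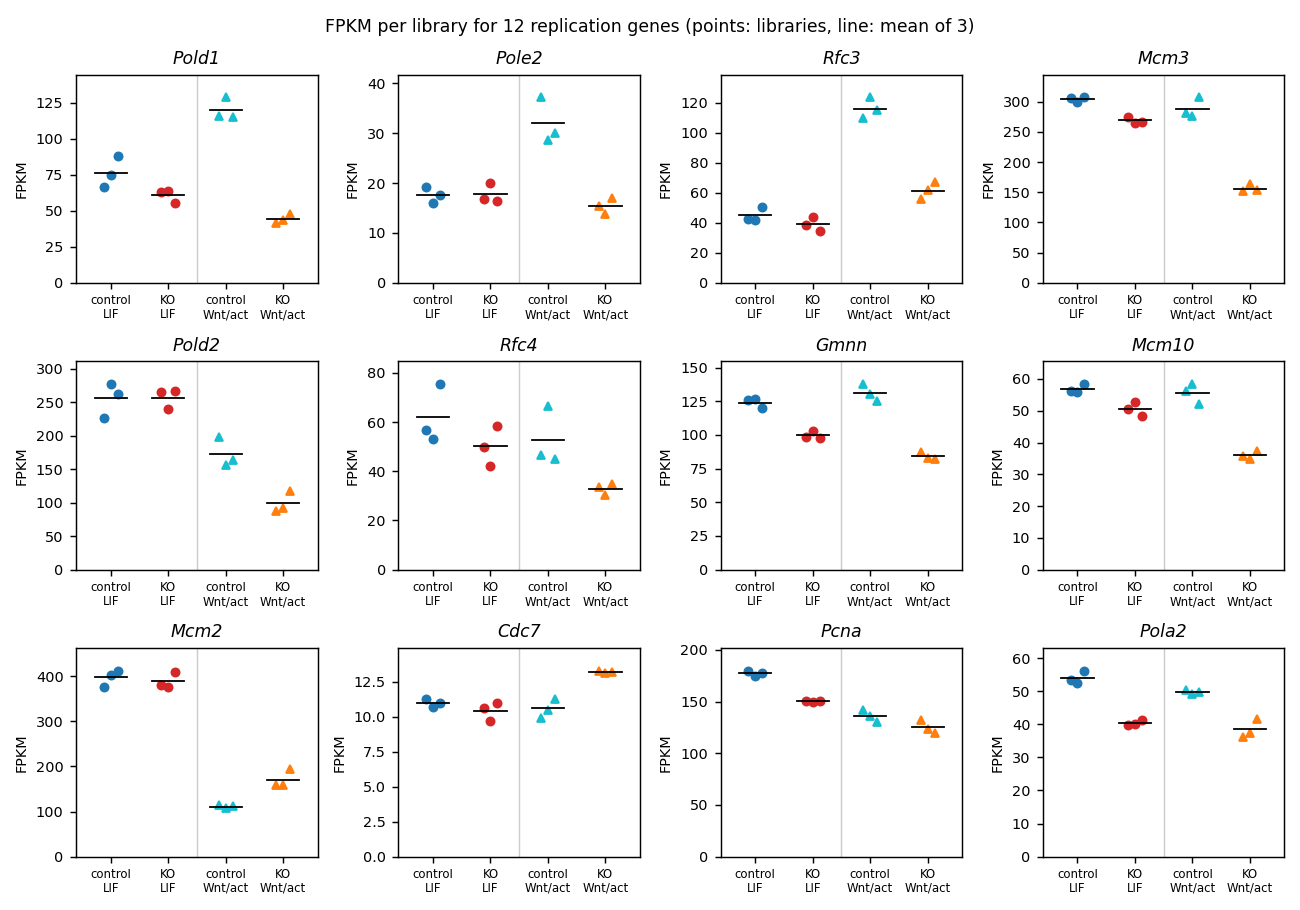
FPKM of 12 replication genes in each library (points) with the mean of 3 (line), for control and KO cells in LIF (left of the grey line) and under Wnt3a and activin A (right, from another table); each axis starts at 0. Pold1 sits at 115 to 129 FPKM in control and 41.5 to 47.4 FPKM in KO libraries on the right, while Mcm2 sits at 108 to 114 and 159 to 195 FPKM.

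Under Wnt3a and activin A the fold change of all genes moved with their level, and the replication genes are abundant. In the top decile of genes by mean level (101 FPKM and above) the median log2 fold change was -0.55, with 75.9% called lower and 6.58% called higher. Of the replication genes 10 stood there, 8 of them called lower, with a median of -0.49. In the next decile the median over all genes was -0.35 with 59.8% called lower, and 11 replication genes stood there, 9 called lower, with a median of -0.39. In the seventh and eighth deciles 4 of 8 and 4 of 8 replication genes were called lower, beside 35.9% and 42.2% of all genes there, and their medians of -0.13 and -0.20 lay beside -0.14 and -0.20. In each of these 4 deciles the median of the replication genes was thus close to that of genes of like level. Summed over the 40 genes, FPKM was 3120 to 3200 in control and 2320 to 2410 in KO libraries, whereas their share of the library's summed FPKM was 0.278 to 0.291% in control and 0.297 to 0.318% in KO libraries. The sum was lower in every KO library and the share higher in every KO library. The share is of summed FPKM and not of reads, so a single RNA with very high FPKM moves it. In LIF KO replicate 3, which held the high Mir6236 value, the share was 0.336%, with the 40 genes at 3630 FPKM. KO replicates 1 and 2 in LIF had shares of 0.446% and 0.439%, with the 40 genes at 3730 and 3690 FPKM. In LIF the top decile had a median of -0.11 with 9.5% called lower, and 3 of the 15 replication genes there were called.

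**Figure D4:**
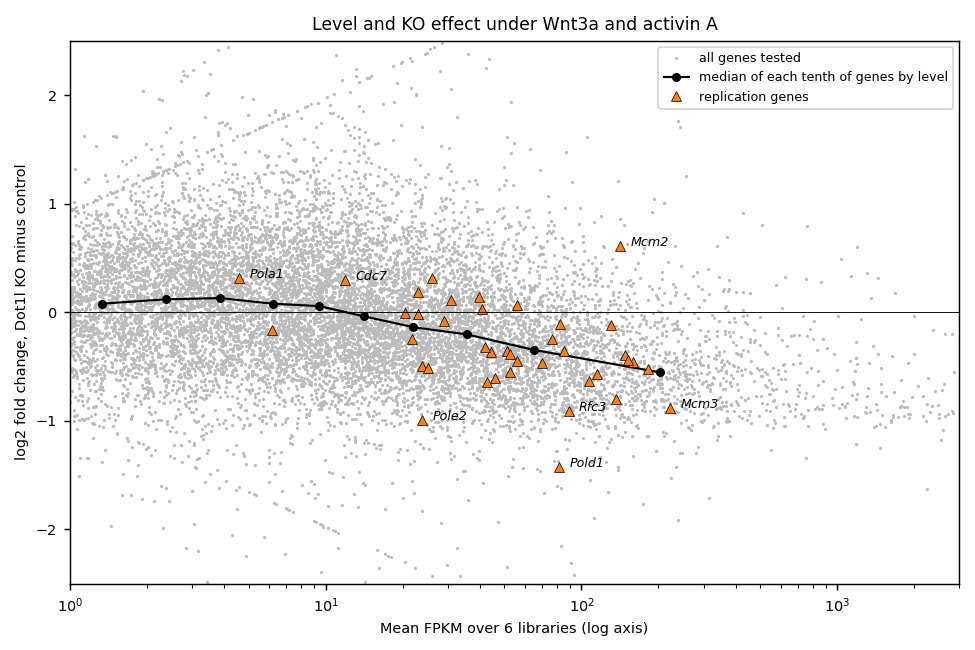
Log2 fold change of KO against control under Wnt3a and activin A (vertical axis) against mean FPKM over 6 libraries (log axis) for all tested genes (grey), the median of each decile of genes by level (black) and the 40 replication genes (triangles); grey points outside the axes are not drawn. The black line runs from 0.08 in the lowest decile to 0.13 in the third and -0.55 in the highest, and most triangles lie near it, with Mcm2 and Pcna above and Pold1, Pole2 and Rfc3 below.

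The difference between the KO effects in the 2 media was tested with an interaction term over 12 libraries and 11783 genes. The KO effect was higher under Wnt3a and activin A than in LIF for 3 replication genes and lower for 17, beside 17.6% and 20.7% of all genes (38.3% in either direction). The median difference was -0.22, beside -0.02 over all genes. For Pold1 the difference in log2 fold change was -1.10 ± 0.14 (limma adjusted p = 0.000208), for Pole2 -1.0 ± 0.17 (0.00111), for Pold2 -0.81 ± 0.17 (0.00444) and for Rfc3 -0.71 ± 0.14 (0.0032). Mcm2 had 0.64 ± 0.11 (limma adjusted p = 0.000972), Cdc7 0.37 ± 0.096 (0.0119) and Mcm4 0.19 ± 0.059 (0.0246). The call of Mcm4 was lost without KO replicate 3 in LIF (0.16) and without KO replicate 2 (0.19) or 3 (0.19) under Wnt3a and activin A. It was lost as well without a variance trend and with a replicate block added. Pold2 and Pole2 had log2 fold changes of 0.01 and 0.01 in LIF, where their groups overlapped. Pola2, lower in both media, differed by 0.05 ± 0.079 and did not pass.

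Ratios of 2 genes within a library do not change when the whole library is multiplied by 1 factor, although quantile normalization and removal of the level trend can change them. The ratios of 4 pairs were computed, chosen after their values were seen, so they describe the libraries and support nothing further. The ratio of Mcm2 to Mcm3 was 0.386 ± 0.0221 (SD, n = 3) in control and 1.1 ± 0.154 in KO libraries under Wnt3a and activin A, and 1.31 ± 0.0693 against 1.45 ± 0.0833 in LIF. It was 1.26 to 1.71 in the Cdk1as/as ES cells. The KO libraries under Wnt3a and activin A (0.973 to 1.27) did not overlap the control libraries (0.362 to 0.405). The ratio of Pold1 to Pole was 4.04 ± 0.307 in control and 2.14 ± 0.0896 in KO libraries under Wnt3a and activin A, and 2.36 ± 0.132 against 2.29 ± 0.108 in LIF, where the groups overlapped. The ratio of Pole2 to Pole was 1.08 ± 0.216 in control and 0.753 ± 0.0463 in KO libraries under Wnt3a and activin A, and 0.551 ± 0.08 against 0.671 ± 0.0511 in LIF. The ratio of Cdt1 to its inhibitor Gmnn was higher in every KO library in both media, at 1.16 ± 0.0458 against 1.41 ± 0.03 in LIF and 0.494 ± 0.0245 against 0.560 ± 0.017 under Wnt3a and activin A, with the limit of the shared locus of Cdt1 given above. The exact two-sided permutation test gave p = 0.1 for each of these but Pold1 to Pole (exact permutation p = 0.5) and Pole2 to Pole (exact permutation p = 0.2) in LIF, and 0.1 is the smallest p that 3 against 3 libraries allow.

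**Figure D5:**
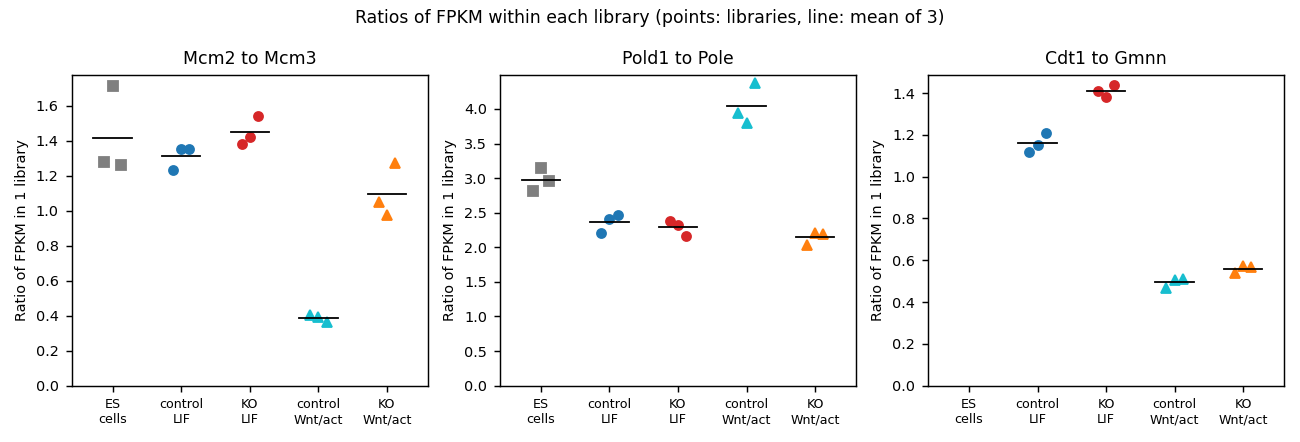
Ratio of FPKM of 2 genes within each library (points) with the mean of 3 libraries (line) for Mcm2 to Mcm3, Pold1 to Pole, and Cdt1 to Gmnn; axes start at 0 and Cdt1 to Gmnn is not drawn for ES cells, where Cdt1 is listed at 0. Control libraries under Wnt3a and activin A stand apart for Mcm2 to Mcm3 (0.362 to 0.405) and for Pold1 to Pole (3.79 to 4.38).

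Other genes of DNA replication and the cell cycle, taken from lists by function, give the setting, and their counts under Wnt3a and activin A stand beside the 29.5% of all genes called lower and 19.6% called higher. Their counts in LIF stand beside 3.45% of all genes called lower and 0.958% called higher. With any 1 LIF library left out, only 1 to 27 of all genes were called in LIF. Of 33 further fork and origin factors, 13 fell and 5 rose under Wnt3a and activin A (median -0.16) and 1 fell in LIF, Dna2 (-0.39 ± 0.065), a nuclease-helicase. The largest falls under Wnt3a and activin A were those of Chtf18, an alternative clamp loader subunit (-1.25 ± 0.16), Rnaseh2a and Rnaseh2c, subunits of the enzyme that removes RNA from DNA (-1.14 ± 0.054 and -0.87 ± 0.13), and Pold4, the small subunit of polymerase delta (-0.89 ± 0.18). Rnaseh2a was 208, 215 and 228 FPKM in control and 99.6, 93.2 and 101 FPKM in KO libraries, with no overlap. Of 19 nucleotide supply genes, 10 fell and 3 rose (median -0.34), with Dtymk, thymidylate kinase, at -0.67 ± 0.055 and Tyms, thymidylate synthase, at -0.59 ± 0.068. In LIF 1 of the 19 fell, Rrm2 (-0.40 ± 0.064), a subunit of ribonucleotide reductase.

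Of 13 E2F and pocket protein genes, 7 rose and 3 fell under Wnt3a and activin A (median 0.32), among them E2f7 (0.78 ± 0.13), Tfdp1, the E2F partner (0.71 ± 0.098), and Rb1 (-0.69 ± 0.18). E2f3 was 9.39, 10.1 and 10.0 against 7.15, 6.13 and 6.43 FPKM in LIF and 8.80, 9.51 and 8.83 against 14.4, 14.5 and 14.1 FPKM under Wnt3a and activin A. It fell in LIF (-0.52 ± 0.082) and rose under Wnt3a and activin A (0.61 ± 0.064). E2f1 was called lower in both media, with -0.50 ± 0.068 in LIF. Among the replication genes with a promoter window, E2F words were in 8 of 19 that fell under Wnt3a and activin A, in 0 of 2 that rose and in 6 of 11 with no call.

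Of 11 S phase cyclins and Cdk2 regulators, 5 rose and 2 fell under Wnt3a and activin A, with Ccne2, cyclin E2, at 0.97 ± 0.22 and Cks1b at -0.69 ± 0.063, and 1 fell in LIF, the inhibitor Cdkn1b (-0.44 ± 0.066). Of 13 checkpoint genes, 3 rose and 4 fell, shares near those of all genes, with Hus1, a subunit of the checkpoint clamp, at 1.2 ± 0.13 and the kinase Wee1 at 0.56 ± 0.061, and 0 were called in LIF. Of 20 mitotic genes, 10 fell and 5 rose, with Cdc20 at -0.69 ± 0.067 and Bub1 at 0.67 ± 0.11, and 1 fell in LIF, Ccnb2 (-0.35 ± 0.042). Under Wnt3a and activin A the summed feeder and fibroblast markers were 293 to 324 FPKM in control and 126 to 135 FPKM in KO libraries, most of it Tagln, and 4 of 8 tested rose and 1 fell. Of 7 ES cell markers 6 fell there, with sums of 2380 to 2540 against 1520 to 1640 FPKM. The part of these cells in the replication genes' values was not tested.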

How the data were processed

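The authors deposited FPKM per gene and library in 3 tables, with a p-value and q-value per gene in the 2 KO tables, and peak lists with a score. The submitters' processing notes name Cufflinks 2.2.1, Cuffdiff and STAR 2.5.4a among the tools and GRCm38 and mm9 among the builds, with no scaling or depth stated. The symbols of the 40 genes were matched exactly. Where FPKM is scaled by the summed signal of a library, a few abundant genes can shift all others. Whether that was done here is not stated. Groups and replicate numbers came from the sample titles.

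From these values log2(FPKM + 1) was tested with limma 3.58.1 in R 4.3.3 (mean-variance trend, genes whose 6 libraries averaged 1 FPKM or more, Benjamini-Hochberg adjustment over all genes, two-sided), with an interaction over 12 libraries; the code was checked on simulated data. SE is the moderated standard error. The genes and lists were chosen with earlier results of these data known. By rule, the text names all genes called in LIF, up to 8 per direction under Wnt3a and activin A, up to 4 per direction for the interaction, the most abundant gene of each role and up to 4 genes per further list; other replication genes are named to complete their role group, and some examples of the further lists and the ratios were chosen after their values were seen. Alternatives changed the pseudocount to 0.1, dropped the filter, rescaled by median of ratios, normalized by quantiles, dropped the variance trend, removed a loess trend of fold change on gene span and level, added a replicate block, or left out 1 library.

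The peak lists were not joined to the genes, because they do not fall on GRCm38 gene starts: 10.1% of starts of expressed genes and 3.69% of starts of silent genes lay within 1000 bases of an H3K79me2 peak of DMSO-treated cells. Of the 40 genes, 8 have no promoter window in the RefSeq table used.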

Additional observations from a re-analysis of the deposited data

Results flagged for a closer look

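For 20 replication genes the KO effect differed between the 2 media by limma's interaction term, at adjusted p under 0.05, beside 38.3% of all 11783 genes. The value given is the log2 fold change under Wnt3a and activin A minus that in LIF. It was above 0 for Mcm2 (0.64), Cdc7 (0.37) and Mcm4 (0.19). Among the polymerase subunits it was -1.10 for Pold1, -1.0 for Pole2 and -0.81 for Pold2. In the clamp loader it was -0.71 for Rfc3 and -0.37 for Rfc2. The MCM subunits Mcm3, Mcm7 and Mcm5 had -0.70, -0.41 and -0.22. Activation factors followed with -0.44 for Mcm10, -0.39 for Gins4, -0.31 for Cdc45 and -0.25 for Gins2. Licensing and origin genes gave -0.42 for Cdt1, -0.34 for Orc6 and -0.32 for Gmnn. Cdt1 and Gins2 share 1 table locus, with the limit given above. At the lagging strand Lig1 had -0.37 and Rpa2 -0.29. Of these, the calls of Mcm2, Cdc7, Mcm3, Mcm10, Pold1 and Pole2 held under every alternative run. With the span and level trend removed 5 of the 17 lower genes kept their call, and 3 changed sign; Mcm5 was called higher (0.14) after quantile normalization.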

How the results depend on the processing

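In LIF, the 4 calls among the replication genes became 1 without a variance trend, beside 1.79% of all genes. They also became 1 after median-of-ratios rescaling (2.74% of all genes), quantile normalization (2.05%) and removal of the span and level trend (1.52%). When any 1 library was left out, they became 0. The replicate block gave 0 with or without the trend removed; with the block limma called 0 of all genes, 2733 at an unadjusted p under 0.05, and 13 of the 40. The median in LIF moved from -0.14 (all genes -0.066) to -0.041 (all genes -0.016) after quantile normalization. It moved to -0.037 (all genes -0.0011) with the trend removed, also with the block. Under Wnt3a and activin A, 27 calls, beside 49.1% of all genes, became 15 with the trend removed, beside 37.2%. With the block added to that they became 14, beside 28.7%. They became 23 to 28 when 1 library was left out, beside 41.6 to 43.7%. The median of -0.36 (all genes -0.084) became -0.27 (all genes -0.00063) after median-of-ratios rescaling. It became -0.086 (all genes -0.037) after quantile normalization and -0.067 (all genes -0.0028) with the trend removed, with or without the block. The gap to all genes was -0.28 at first, then -0.27, -0.049 and -0.064 in that order. The 20 interaction calls, beside 38.3% of all genes, became 12 with the trend removed, beside 26.8%. Under Wnt3a and activin A signs reversed with the trend removed for Orc6 (0.08, and 0.08 with the block as well), Cdt1 (0.037), Mcm7 (0.061) and Fen1 (0.11), and after quantile normalization for Mcm5 (0.039) and Rpa1 (0.069). In the interaction they reversed for Gmnn (0.0022 with the trend removed), Gins2 (0.044 after quantile normalization, 0.11 with the trend removed) and Mcm5 (0.051 with the trend removed; 0.14 and called higher after quantile normalization). The cause was not tested.

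Whether replicate numbers pair the libraries is not stated. Deviations of same-numbered libraries correlated at -0.0119 to 0.0621 across genes, and those of differently numbered libraries at -0.079 to 0.0728. The block alone gave 26 calls under Wnt3a and activin A and 14 in the interaction, beside 43.8% and 33.2% of all genes. Over all genes, LIF calls were 580, but 236 without a variance trend, 360 after median-of-ratios rescaling, 259 without a filter, 269 after quantile normalization and 200 with the trend removed. LIF calls split 126 higher to 454 lower, and 164 to 196, 127 to 142 and 113 to 87 after median-of-ratios, quantile and trend removal. Under Wnt3a and activin A the split was 2500 to 3773, and then 3063 to 3156, 2746 to 2889 and 2500 to 2256. Counting error cannot be given because read depth is not stated. The planned overlap of the 40 genes with H3K79me2 peaks was not run.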
